A study of Homo sapiens with 30 samples.

Results

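The 10 genes described here, IRF4, PRDM1, FOXP1, BATF, SPIB, ENTPD1, PIM1, PIM2, SDC1 and JCHAIN, are markers of activated B cells and of plasmablasts, the dividing precursors of plasma cells. They were chosen by symbol out of 60656 genes in the deposited tables, all 10 were found, and each was read in all 30 libraries. The libraries are poly(A) RNA-seq of human diffuse large B cell lymphoma cell lines, 3 per group in 10 groups, and each group carries the genotype label WT. For each of 4 lines, HT, SUDHL5, OCI-LY3 and OCI-LY19, an untreated group at 0 h was set against a group at 24 h in 0.2 µM doxorubicin, an anthracycline that traps topoisomerase II on DNA. The titles of the 24 h libraries carry both DOXO and ctrl, and these libraries were grouped by their treatment label. No untreated group at 24 h was analysed, so drug and time in culture cannot be told apart. A separate table held OCI-LY19S, a parental culture without drug, and OCI-LY19R, a culture made resistant and maintained in 20 nM doxorubicin until 1 week before harvest. Each line is an established culture, and OCI-LY19R is 1 resistant culture of OCI-LY19. The question for these genes was how far each line held the activated B cell and plasmablast program, and how that program stood after the drug and in the resistant culture.

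Germinal center B cells are held in their state by BCL6. When such a cell is activated, IRF4 rises, works with BATF or with the ETS factors SPIB and PU.1 on composite DNA sites, and at high level turns on PRDM1 (BLIMP1), which represses BCL6 and the B cell program and opens the way to secretion. Plasmablasts then display SDC1 (CD138) and make JCHAIN, the peptide that joins IgM and IgA into polymers. The activated B cell-type of this lymphoma is known for high IRF4, FOXP1, BATF, SPIB, ENTPD1 (CD39) and the survival kinases PIM1 and PIM2, and for a block before full PRDM1 function.

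The 6 members that rose together in SUDHL5 were SDC1, PRDM1, JCHAIN, BATF, SPIB and PIM2, and the 250 bases before their start sites are shown for that reason (RefSeq, GRCh38.p14; all 10 members matched, with 21 start sites in all). Capitals mark matches, on either strand, to the octamer (ATGCAAAT), the AP-1 site (TGANTCA), the NF-kB site (GGGNNTTNCC), the CCAAT box (CCAAT) or the TATA box (TATAAA). The interferon response motif (GAAANNGAAA), the composite ETS and IRF motif (GGAANNGAAA), which can share bases with it, and the E-box (CACGTG) were also searched. SDC1 and PRDM1 each had 2 start sites, and both are given.
SDC1, chr2:20225131-20225380, minus strand: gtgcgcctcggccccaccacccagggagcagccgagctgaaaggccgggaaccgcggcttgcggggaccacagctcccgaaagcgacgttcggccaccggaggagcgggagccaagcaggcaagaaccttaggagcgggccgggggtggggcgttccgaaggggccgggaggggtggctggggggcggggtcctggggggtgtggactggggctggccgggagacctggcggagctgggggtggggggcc
SDC1, chr2:20225476-20225725, minus strand: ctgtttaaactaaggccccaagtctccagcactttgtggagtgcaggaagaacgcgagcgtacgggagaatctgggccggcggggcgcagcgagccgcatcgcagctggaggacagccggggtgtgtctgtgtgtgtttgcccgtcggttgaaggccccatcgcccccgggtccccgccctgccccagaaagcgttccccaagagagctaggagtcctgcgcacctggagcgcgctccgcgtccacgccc
PRDM1, chr6:106086086-106086335, plus strand: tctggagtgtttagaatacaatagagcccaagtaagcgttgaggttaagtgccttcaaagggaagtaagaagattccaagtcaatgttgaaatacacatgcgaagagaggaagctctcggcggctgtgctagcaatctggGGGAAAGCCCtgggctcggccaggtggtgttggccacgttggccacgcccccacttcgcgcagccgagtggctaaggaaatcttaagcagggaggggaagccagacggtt
PRDM1, chr6:106098691-106098940, plus strand: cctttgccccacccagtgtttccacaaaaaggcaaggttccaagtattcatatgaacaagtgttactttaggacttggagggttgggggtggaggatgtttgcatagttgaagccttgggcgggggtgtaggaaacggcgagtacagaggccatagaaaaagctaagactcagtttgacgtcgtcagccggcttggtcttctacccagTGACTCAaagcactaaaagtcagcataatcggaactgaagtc
JCHAIN, chr4:70666509-70666758, minus strand: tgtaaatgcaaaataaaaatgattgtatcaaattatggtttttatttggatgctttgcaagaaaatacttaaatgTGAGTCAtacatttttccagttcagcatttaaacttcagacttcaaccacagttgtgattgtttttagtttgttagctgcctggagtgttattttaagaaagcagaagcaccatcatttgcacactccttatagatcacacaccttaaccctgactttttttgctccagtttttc
BATF, chr14:75522219-75522468, plus strand: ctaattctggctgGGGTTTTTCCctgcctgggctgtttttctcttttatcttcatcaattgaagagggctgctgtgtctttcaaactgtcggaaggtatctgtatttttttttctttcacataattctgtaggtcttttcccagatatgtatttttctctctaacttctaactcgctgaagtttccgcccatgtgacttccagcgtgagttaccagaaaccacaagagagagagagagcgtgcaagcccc
SPIB, chr19:50418688-50418937, plus strand: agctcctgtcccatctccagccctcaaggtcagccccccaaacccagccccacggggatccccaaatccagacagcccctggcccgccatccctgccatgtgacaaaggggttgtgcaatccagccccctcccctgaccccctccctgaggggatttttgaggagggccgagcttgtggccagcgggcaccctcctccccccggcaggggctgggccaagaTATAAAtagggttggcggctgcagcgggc
PIM2, chrX:48919025-48919274, minus strand: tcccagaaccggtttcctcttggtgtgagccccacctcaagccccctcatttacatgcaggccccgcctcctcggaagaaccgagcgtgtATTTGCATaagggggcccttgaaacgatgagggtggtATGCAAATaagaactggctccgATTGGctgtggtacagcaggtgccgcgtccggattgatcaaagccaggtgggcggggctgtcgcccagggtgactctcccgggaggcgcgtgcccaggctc
Of 34796 distinct promoter windows, 1.62% held the octamer, 6.59% the AP-1 letters, 5.06% the NF-kB letters, 32% a CCAAT box, 10.8% a TATA box, 3.02% the interferon response letters, 2.41% the composite letters and 6.31% the E-box. PIM2 held 2 octamers, ATTTGCAT at position -160 and ATGCAAAT at position -123 from the start site, in addition to a CCAAT box at -101. JCHAIN held TGAGTCA at -175 and PRDM1 held TGACTCA at -42 of its second window, both AP-1 letters, the motif bound by dimers of BATF with JUN proteins. An NF-kB match lay at -110 of the other PRDM1 window (GGGAAAGCCC) and at -237 of BATF (GGGTTTTTCC). SPIB held a TATA box at -29, and neither SDC1 window held any of the 8 motifs. These 6 genes shared no motif, and a match is a description of letters, not of binding.

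Values are FPKM, counted fragments scaled to exon length and to library depth, and tests used limma on log2(FPKM + 1), so log2 changes of low genes are understated. Depth ran from 16067405 to 38337869 reads per library in the 4 lines. In the resistance table it was 18354091 to 33439107 in 5 libraries and 121769119 in OCI-LY19S replicate 3. All 8 B cell markers listed (among them MS4A1, CD79A and PAX5) were tested in both tables. CD2 stayed at or below 0.114 FPKM in all libraries of the 4 lines, while TRAC reached 109 to 115 FPKM in untreated SUDHL5. The 3 libraries within each SUDHL5 group differed by 1.99 to 5.78 times the sampling noise of reads, against 7.33 to 105 times in the other groups. The labels call the replicates independent experiments, and the files do not show whether they were separate cultures. P-values therefore measure the spread between these libraries. For the 4 lines that spread was pooled per gene over all 8 groups in 1 fit. A p-value for 1 line does not rest on the spread of its own libraries alone. The strand setting of the counting was not given in the sources used here. On the opposite strand, PRDM1 overlaps ATG5, ENTPD1 overlaps ENTPD1-AS1, FOXP1 overlaps FOXP1-AS1 and JCHAIN overlaps ENAM, and SPIB lies within a read-through gene on its own strand, so these members' reads could include those of a neighbour.

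In the untreated lines the 10 members did not run together: OCI-LY19 had by far the most IRF4 and PRDM1 and the least SPIB, PIM1 and JCHAIN. The levels of all 10 members differed among the 4 lines in an F test across lines (adjusted p from 3.59e-22 for JCHAIN to 0.00714 for FOXP1, limma), as did 90.5% of all genes tested. With quantile normalization 9 of the 10 members passed. Between pairs of untreated lines, 62.1% of genes differed for OCI-LY3 and HT, 62.8% for OCI-LY3 and OCI-LY19, 66.0% for OCI-LY3 and SUDHL5, 64.4% for HT and OCI-LY19, 67.0% for HT and SUDHL5 and 71.0% for OCI-LY19 and SUDHL5. A difference between lines is therefore the common case, and only its size and order are described for the members.

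**Figure D1:**
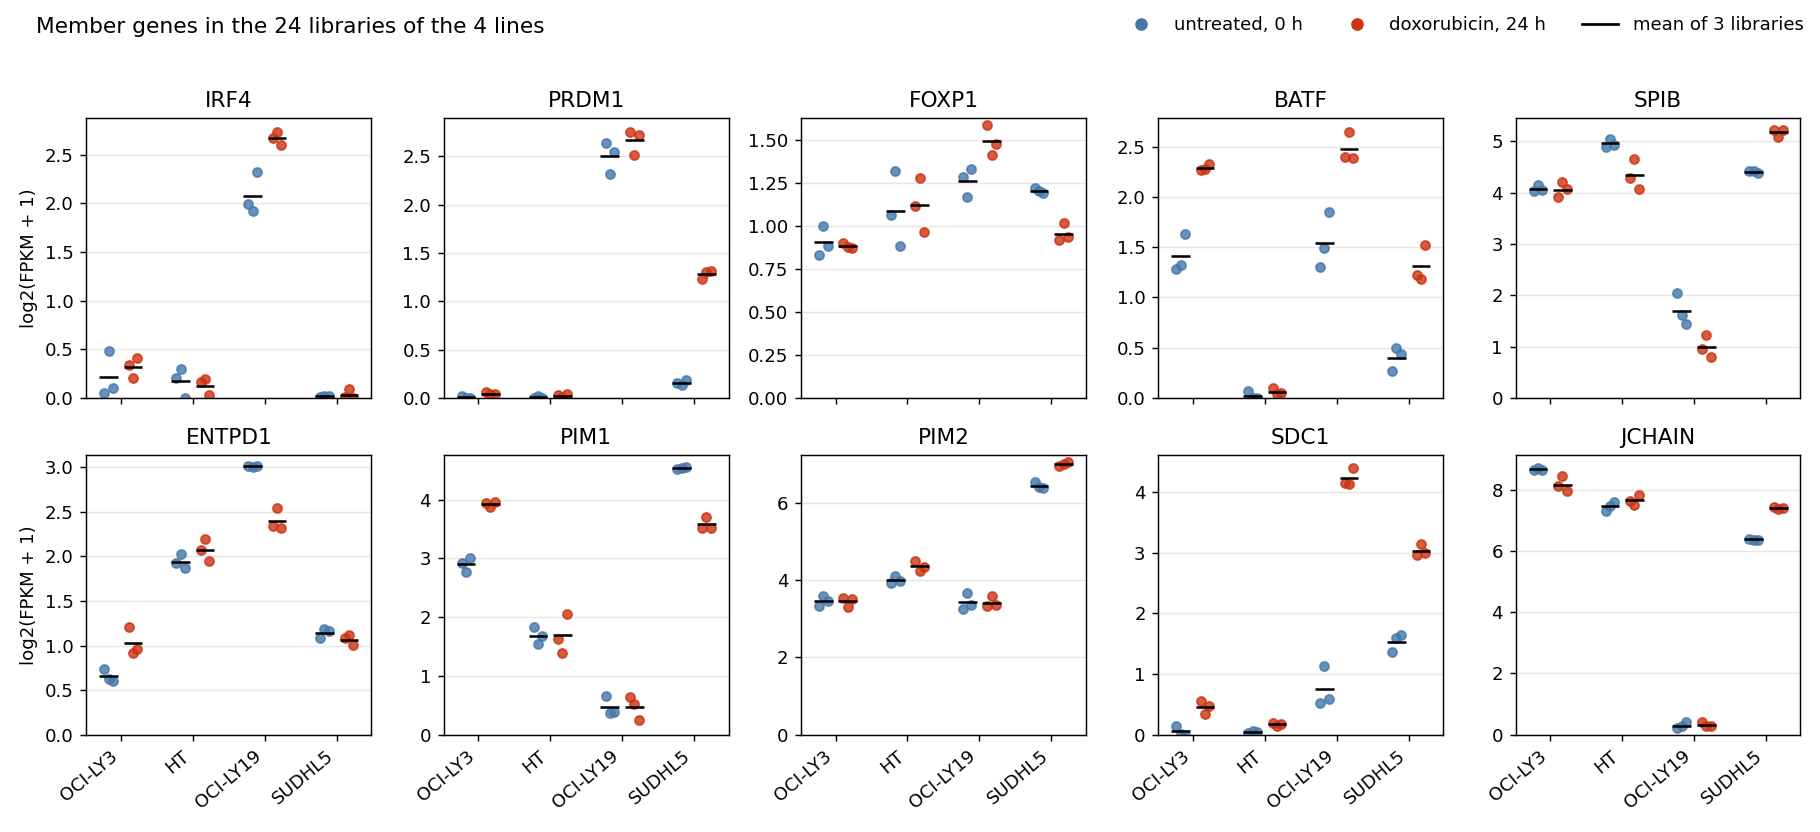
Expression of the 10 members in the 24 libraries of the 4 lines, as log2(FPKM + 1) with 1 panel per gene, each axis starting at 0 with its own range. Each point is 1 library, blue untreated at 0 h and red at 24 h in doxorubicin, and bars are means of 3 libraries; IRF4 and PRDM1 stand high in OCI-LY19 only among untreated lines, and JCHAIN stands high in the other 3 lines.

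IRF4, the transcription factor that drives both activation and plasma cell entry (chromosome 6, 391739 to 411447, plus strand), had 2.98, 2.79 and 3.99 FPKM in the untreated OCI-LY19 libraries. It had 0.0390, 0.399 and 0.0732 FPKM in OCI-LY3 (6, 62 and 11 reads), 0.156, 0.229 and 0 in HT, and 0.00646, 0.0131 and 0.0140 in SUDHL5 (1 to 2 reads). OCI-LY19 stood above every other library, and the other lines overlapped or lay near the floor of 3 reads. OCI-LY3, HT and SUDHL5 were not separated by the limma test (adjusted p = 0.771, 0.125 and 0.235 for the pairs OCI-LY3 and HT, OCI-LY3 and SUDHL5, HT and SUDHL5). The OCI-LY3 libraries did lie above those of SUDHL5 without overlap, 15.3-fold in the means. At such low values the log2(FPKM + 1) scale compresses differences, so the test cannot show that these lines are alike.

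PRDM1, the repressor that completes plasma cell entry (chromosome 6, 106086320 to 106109939, plus strand), was measured at 5.24, 3.99 and 4.82 FPKM in untreated OCI-LY19. SUDHL5 followed at 0.113, 0.0971 and 0.134 FPKM (17 to 22 reads), and OCI-LY3 and HT had at most 2 reads in any untreated library. OCI-LY19 exceeded SUDHL5 40.9-fold in mean FPKM (adjusted p = 1.93e-16, limma). SUDHL5 was not separated from OCI-LY3 or HT by the test (adjusted p = 0.0697 and 0.0689), though its libraries did not overlap theirs. The overlapping gene ATG5 had 7.19 ± 0.348 FPKM (SD, n = 3) in untreated OCI-LY3, where PRDM1 was near 0.

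OCI-LY3 is widely used as an activated B cell-type line, but the libraries labelled OCI-LY3 lacked IRF4 and PRDM1 at any sizeable level, while they held BATF, SPIB, PIM1 and PIM2 at 1.69, 15.9, 6.47 and 10 FPKM in the means. IRF4 stayed at or below 0.399 FPKM and PRDM1 at 0 to 2 reads in the untreated libraries, BCL6 stood at 78.2 ± 6.24 FPKM (SD, n = 3), and the 14 germinal center B cell-type genes summed to 395 to 482 FPKM with 13 of them at 1 FPKM or more. OCI-LY19, commonly grouped with the germinal center type, had BCL6 at 1.59 ± 0.580 FPKM and a sum of 51.5 to 57.4 FPKM for the same genes. The labels give no subtype, and line identity was not tested.

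BATF, the AP-1 family partner of IRF4 (chromosome 14, 75522425 to 75547015, plus strand), was alike in untreated OCI-LY19 (1.47, 1.81 and 2.60 FPKM) and OCI-LY3 (1.44, 1.51 and 2.11 FPKM). These lines overlapped (log2 difference, OCI-LY3 minus OCI-LY19, -0.13, 95% interval -0.39 to 0.13, adjusted p = 0.378). SUDHL5 was lower at 0.325 ± 0.108 FPKM (SD, n = 3), and HT had 1, 0 and 0 reads. BATF is short, with 928 bases of exon, so 3 reads equal up to 0.201 FPKM.

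SPIB, the B cell ETS factor (chromosome 19, 50418938 to 50431313, plus strand), followed another order. HT had 28.8, 32.1 and 29.6 FPKM, SUDHL5 20.3, 20.4 and 20.0, OCI-LY3 15.4, 16.7 and 15.6, and OCI-LY19 3.12, 2.05 and 1.73. No neighbours in that order overlapped, and the smallest step, from SUDHL5 to OCI-LY3, passed narrowly (adjusted p = 0.0486, limma). FOXP1, a forkhead factor that holds B cells short of the plasma cell state (chromosome 3, 70952817 to 71583993, minus strand), varied least, from 0.872 ± 0.115 FPKM (SD, n = 3) in OCI-LY3 to 1.4 ± 0.141 in OCI-LY19. Its exons span 36710 bases when joined, which lowers its FPKM, yet each untreated library held 745 to 1860 reads.

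The kinases PIM1 (chromosome 6, 37170203 to 37175426, plus strand) and PIM2 (chromosome X, 48913182 to 48919024, minus strand), which phosphorylate survival and growth regulators, were highest in SUDHL5. PIM2 had 92.0, 84.1 and 82.5 FPKM there, against 15.1 ± 0.981 in HT, 10 ± 0.985 in OCI-LY3 and 9.77 ± 1.60 in OCI-LY19 (SD, n = 3 each). The last pair overlapped (adjusted p = 0.762). PIM1 had 21.9, 22.1 and 22.4 FPKM in SUDHL5, 6.54, 5.84 and 7.04 in OCI-LY3, 2.55, 1.91 and 2.21 in HT and 0.580, 0.283 and 0.304 in OCI-LY19, and no lines overlapped.

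ENTPD1, the surface enzyme CD39 that degrades extracellular ATP (chromosome 10, 95711779 to 95869695, plus strand), was highest in OCI-LY19 at 7.12, 7.01 and 7.07 FPKM. HT followed at 2.84 ± 0.204, SUDHL5 at 1.21 ± 0.0827 and OCI-LY3 at 0.578 ± 0.0794 FPKM (SD, n = 3 each), with no overlap. ENTPD1-AS1 on the other strand had 3.5 ± 0.0902 FPKM in OCI-LY19 and 0.272 ± 0.0395 in OCI-LY3, the highest and lowest of the untreated lines for both genes.

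SDC1, the CD138 heparan sulfate proteoglycan of plasma cells (chromosome 2, 20200797 to 20225433, minus strand), was low in all untreated lines. SUDHL5 had 1.58, 2.02 and 2.11 FPKM, OCI-LY19 0.432, 1.20 and 0.499, and OCI-LY3 and HT 0 to 10 reads per library. JCHAIN (chromosome 4, 70655541 to 70681817, minus strand) was the most abundant member per length in OCI-LY3 (407, 423 and 401 FPKM) and in HT (158, 178 and 196 FPKM). SUDHL5 had 83.9, 82.2 and 81.9 FPKM, close to its PIM2. OCI-LY19 had only 0.147, 0.202 and 0.322 FPKM, 8 to 13 reads, a level 370-fold below SUDHL5 in the means.

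Over the 8 groups of the 4 lines, group means on the log2(FPKM + 1) scale gave the members correlations from -0.98 to 0.92, a description over 4 lines that each enter as 2 groups. IRF4 and PRDM1 went together (Pearson r = 0.90, n = 8 groups), and so did SPIB and JCHAIN (r = 0.92). IRF4 ran against SPIB (r = -0.98) and JCHAIN (r = -0.95). IRF4 had a mean of at most 0.247 FPKM in every group outside OCI-LY19, so its correlations mainly set OCI-LY19 against the other lines. JCHAIN had at most 0.243 FPKM in the OCI-LY19 means and at least 82.7 FPKM elsewhere, so the same holds for its correlations. Other pairs were near 0, such as BATF and ENTPD1 (r = 0.01), BATF and FOXP1 (r = 0.13) and PIM1 and SDC1 (r = -0.13). Among 5992 other genes with a highest group mean of at least 10 FPKM, the 5 most like IRF4 were PSD3, NAV1, ANTXR2, CCDC50 and CD44 (r from 0.995 to 0.998), each highest in OCI-LY19 at 24 h. For PRDM1 they were ACTN1, SATB1, S1PR4, ANKRD11 and ANKRD13D (r from 0.976 to 0.995), and for JCHAIN they included COTL1, CNN2, LCK and BLK (r from 0.992 to 0.995).

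At 24 h in doxorubicin, SDC1 and BATF were called up in 3 of the 4 lines, and in this fit no member was called in all 4. SUDHL5 showed the most member changes, with 6 rises and 2 falls, and HT the fewest, with 1 of each. In OCI-LY3, 4 members rose and 1 fell, where 40.4% of 17645 genes tested rose and 14.3% fell. The HT shares of all genes were 22.9% risen and 9.41% fallen. In OCI-LY19, 4 members rose and 2 fell, against 34.5% and 23.7% of all genes. In SUDHL5 the shares were 18.6% risen and 19.9% fallen. The member counts of OCI-LY3, HT and OCI-LY19 are near the shares of all genes in those lines. The members' median change was 0.67 in SUDHL5, where the median over all genes was 0.00, and it was 0.07 in OCI-LY3 (0.16 over all genes), 0.04 in HT (0.06) and 0.09 in OCI-LY19 (0.08), all on the log2 scale. The share of upward calls over all genes moved with scaling. It went from 73.9% to 51.5% in OCI-LY3 and from 70.9% to 55.9% in HT when scaled by the median of ratios (50.9% and 52.2% after quantile normalization), from 59.3% to 44.7% in OCI-LY19 under quantile normalization and from 48.4% to 38.1% in SUDHL5 on the TPM scale. In OCI-LY3 the all-gene median fell from 0.16 to 0.01 under median-of-ratios scaling, so small OCI-LY3 changes are to be read against that shift.

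**Figure D2:**
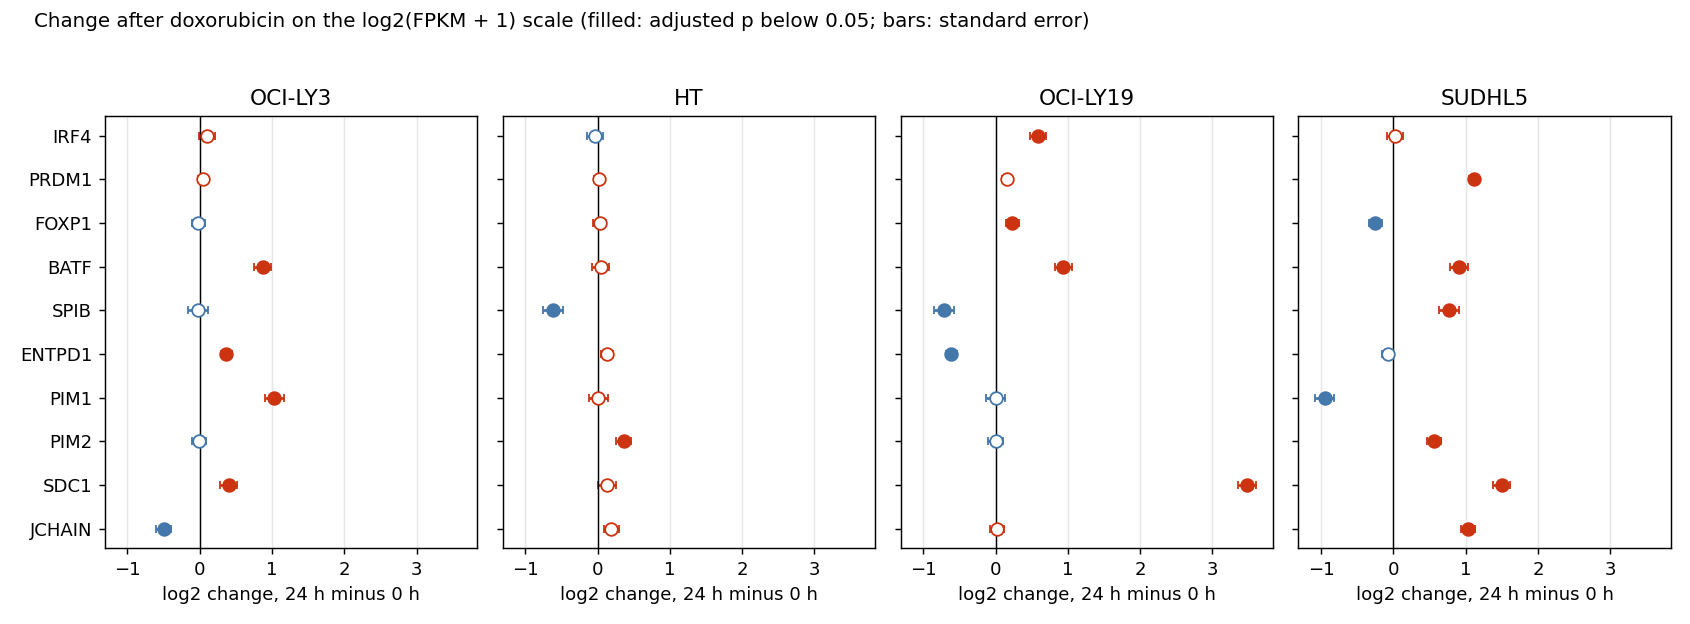
Change of each member from 0 h to 24 h in doxorubicin, as the limma log2 change on the log2(FPKM + 1) scale with its standard error. Filled points passed an adjusted p of 0.05 and open points did not; red is above 0 and blue below, and the SDC1 point of OCI-LY19 at 3.48 is the farthest from 0.

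The largest member change was that of SDC1 in OCI-LY19. Its libraries went from 0.432, 1.20 and 0.499 FPKM to 16.6, 16.6 and 20.0 FPKM, a 25-fold rise of the mean (log2 change 3.48 ± 0.12 SE, adjusted p = 2.19e-14, limma). In SUDHL5, SDC1 went from 1.58, 2.02 and 2.11 to 6.76, 7.87 and 6.92 FPKM, 3.78-fold (1.5 ± 0.12, adjusted p = 1.16e-08). The treated and untreated libraries were fully apart in both lines. In OCI-LY3 it went from 0 to 10 reads per library to 23 to 46 reads, 0.265 to 0.464 FPKM (adjusted p = 0.00876; 0.0837 with quantile normalization). HT had 0.0127, 0.0427 and 0.0270 FPKM before and 0.138, 0.108 and 0.131 FPKM after, apart but within 15 reads (adjusted p = 0.471). The HT mean rose 4.58-fold, which adding 1 holds at a log2 change of 0.13. With a pseudocount of 0.1 the HT change was 0.83 (limma adjusted p = 0.033), so a rise in HT is not excluded. The response differed between OCI-LY19 and SUDHL5 by 1.98 ± 0.17 (adjusted p = 3.77e-08), where 43.9% of all genes differed in response.

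SDC1 is also made by epithelial cells, so other markers of such cells were read beside it. In OCI-LY19, EPCAM stayed at or below 0.0803 FPKM at 0 h and 0.0256 FPKM at 24 h. The 10 stromal, epithelial and endothelial markers summed to 0.0582 to 1.94 FPKM at 0 h and 0.359 to 1.53 FPKM at 24 h, with 1 of them at 0 in all 3 libraries at 0 h and 0 at 24 h. Of the 2 that were tested, 1 rose and 0 fell. Of the 8 myeloid markers, 3 were tested and all 3 rose in this line, and the sum of the 8 went from 6.03 to 9.83 FPKM at 0 h to 20.1 to 33.2 FPKM at 24 h. The leukocyte integrin ITGAM went from 0.0687 ± 0.0488 to 10.4 ± 5.75 FPKM (SD, n = 3) and lysozyme, LYZ, from 4.32 ± 1.76 to 12.1 ± 2.29 FPKM, while CD14 was 0.165 ± 0.0401 and 0.0443 ± 0.0450 FPKM and S100A9 was listed at 0. In SUDHL5 the myeloid sum was 0.299 to 0.466 FPKM at 0 h and 5.30 to 6.23 FPKM at 24 h, with S100A8 and S100A9 listed at 0 in both groups. Of the 10 T and NK cell markers, TRAC went from 18.9 ± 2.31 to 65.9 ± 11.6 FPKM in OCI-LY19, while CD3D, CD3E and CD4 were listed at 0 there, and the list's sum went from 24.8 to 28.4 FPKM to 62 to 87.4 FPKM. In SUDHL5, 5 of the 7 tested T and NK cell markers rose (median change 1.14), with CD3D at 0.728 ± 0.0819 and 5.4 ± 1.06 FPKM and CD3E at 2.28 ± 0.302 and 8.09 ± 0.372 FPKM before and after. Those at a mean of 1 FPKM or more went from 3 to 7 of 10, and the sum, most of it TRAC, was 114 to 120 FPKM before and 111 to 119 after. The 2 tested stromal, epithelial and endothelial markers rose in SUDHL5 (median change 0.75), among them DCN from a mean of 6.66 to 11.2 FPKM. The sum of those 10 markers was 8.7 to 8.87 FPKM before and 15.4 to 16.3 FPKM after. Of all genes, 34.5% rose and 23.7% fell in OCI-LY19, and 18.6% rose and 19.9% fell in SUDHL5. The part of the stromal, epithelial, endothelial, myeloid and T cell markers in the SDC1 result was not tested. In bulk RNA, more cells with a transcript and more transcript per cell cannot be told apart.

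PRDM1 rose in SUDHL5 from 0.113, 0.0971 and 0.134 to 1.34, 1.47 and 1.48 FPKM, 12.5-fold in the means (1.12 ± 0.07 SE, adjusted p = 3.1e-10, limma). The read numbers went from 17 to 22 per library to 178 to 259, and ATG5 on the other strand was 2.13 ± 0.368 FPKM before and 2.23 ± 0.101 after (SD, n = 3). The treated SUDHL5 level stayed under that of OCI-LY19. In OCI-LY19, PRDM1 was already at 5.24, 3.99 and 4.82 FPKM and had 5.76, 4.72 and 5.59 FPKM at 24 h, overlapping (0.16 ± 0.07, 95% interval 0.02 to 0.31, adjusted p = 0.0552). OCI-LY3 had 4 to 8 reads and HT 1 to 5 reads at 24 h. On this scale, which holds changes at a few reads near 0, PRDM1 responded more in SUDHL5 than in OCI-LY3 (limma adjusted p = 6.19e-08), HT (8.4e-08) or OCI-LY19 (3.91e-07). In these comparisons 49.4%, 37.0% and 43.9% of all genes differed.

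IRF4 was called up only in the line that already had it, OCI-LY19, from 2.98, 2.79 and 3.99 to 5.38, 5.68 and 5.08 FPKM (0.59 ± 0.11 SE, adjusted p = 0.000125, limma). The groups did not overlap, and the mean rose 1.65-fold. With a pseudocount of 0.1 in place of 1 the change was 0.72 with an adjusted p of 0.167. On this scale the OCI-LY19 response differed from that of OCI-LY3 (limma adjusted p = 0.014, 47.7% of all genes), HT (0.00257, 45.2%) and SUDHL5 (0.00565). The other lines held so little IRF4 that adding 1 keeps their changes near 0, so this test cannot compare folds. Their means changed 1.45-fold in OCI-LY3, 0.726-fold in HT and 2.12-fold in SUDHL5, at 0 to 62 reads per library. In the other lines IRF4 at 24 h was 0.156 to 0.325 FPKM in OCI-LY3, 0.0173 to 0.146 FPKM in HT and 0 to 0.0651 FPKM in SUDHL5, each overlapping 0 h. PRDM1 rose in SUDHL5 while IRF4 stood at 0 to 10 reads per library, and a link between them was not tested.

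BATF rose in 3 lines, 2.31-fold in OCI-LY3, 2.35-fold in OCI-LY19 and 4.6-fold in SUDHL5 in mean FPKM. OCI-LY3 went from 1.44, 1.51 and 2.11 to 3.81, 3.85 and 4.03 FPKM (0.87 ± 0.12 SE, adjusted p = 5.51e-06, limma). OCI-LY19 went from 1.47, 1.81 and 2.60 to 4.29, 5.29 and 4.24 FPKM (0.94 ± 0.12, adjusted p = 2.06e-06), and SUDHL5 from 0.205, 0.415 and 0.354 to 1.33, 1.28 and 1.87 FPKM (0.91 ± 0.12, adjusted p = 7.11e-06). All treated libraries lay above all untreated libraries of the same line. On this scale, which understates the change of the lowest line, SUDHL5, the differences between these responses had 95% intervals of -0.42 to 0.30 for OCI-LY3 minus OCI-LY19, -0.40 to 0.33 for OCI-LY3 minus SUDHL5 and -0.33 to 0.39 for OCI-LY19 minus SUDHL5. With a pseudocount of 0.1 the BATF change was 1.18 in OCI-LY3, 1.22 in OCI-LY19 and 1.92 in SUDHL5, and the differences at that setting were not tested. HT had 0 to 1 reads in each untreated and 1 read in each treated library, so its change on this scale (0.04) is held near 0. Its response was below that of the other 3 by the test (limma adjusted p = 0.00125 against OCI-LY3, where 29.4% of all genes differed). At so few reads that test cannot tell a lower response from an unmeasured one. BATF counts were modest, 5 to 63 reads per untreated library in the 3 lines. Without the 4 libraries marked 2nd in their column names, the BATF change was 0.79 in OCI-LY3 and 0.82 in OCI-LY19.

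SPIB moved in opposite directions. It rose in SUDHL5 from 20.3, 20.4 and 20.0 to 36.5, 33.0 and 36.4 FPKM (0.77 ± 0.14 SE, adjusted p = 0.000207). It fell in HT from 28.8, 32.1 and 29.6 to 18.6, 24.3 and 15.8 FPKM (-0.62 ± 0.14, adjusted p = 0.00229) and in OCI-LY19 from 3.12, 2.05 and 1.73 to 0.944, 1.33 and 0.727 FPKM (-0.71 ± 0.14, adjusted p = 0.000243). OCI-LY3 was level at 14.1 to 17.4 FPKM (95% interval of the change -0.32 to 0.28). The SUDHL5 response differed from HT and OCI-LY19 (adjusted p = 2.13e-05 and 8.02e-06, limma). FOXP1 was called up in OCI-LY19 (0.23 ± 0.09, adjusted p = 0.0413) and down in SUDHL5 (-0.25 ± 0.09, adjusted p = 0.0426), from 1.4 to 1.81 and from 1.30 to 0.938 FPKM in the means. Both calls were lost on leaving out libraries, each of the 6 in turn for SUDHL5, and the OCI-LY19 change was -0.08 with quantile normalization.

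PIM1 and PIM2 parted in SUDHL5. PIM1 fell there from 21.9, 22.1 and 22.4 to 10.5, 12.0 and 10.5 FPKM (-0.95 ± 0.13 SE, adjusted p = 1.02e-05), and PIM2 rose from 92.0, 84.1 and 82.5 to 123, 128 and 132 FPKM (0.56 ± 0.10, adjusted p = 0.000173). In OCI-LY3, PIM1 rose from 6.54, 5.84 and 7.04 to 14.4, 13.7 and 14.5 FPKM (1.03 ± 0.13, adjusted p = 2.02e-06), and PIM2 was level (-0.01, 95% interval -0.22 to 0.20). The PIM1 responses of OCI-LY3 and SUDHL5 differed by 1.98 ± 0.19 (adjusted p = 7.82e-08, limma). In HT, PIM2 went from 14.2, 16.1 and 14.9 to 21.7, 17.8 and 19.3 FPKM (0.36 ± 0.10, adjusted p = 0.00996), and without HT replicate 1 at 24 h the change was 0.29 with an adjusted p of 0.0606. Neither kinase changed in OCI-LY19 by the test (PIM1 95% interval -0.27 to 0.28, PIM2 -0.21 to 0.21). The third kinase of the family, PIM3, fell in OCI-LY3 from 38.3 ± 11.1 to 20.8 ± 2.71 FPKM (SD, n = 3; -0.82 ± 0.21 SE).

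ENTPD1 rose in OCI-LY3, where it was lowest, from 0.669, 0.544 and 0.521 to 1.32, 0.887 and 0.954 FPKM (0.37 ± 0.08 SE, adjusted p = 0.000648; 0.732 with quantile normalization). It fell in OCI-LY19, where it was highest, from 7.12, 7.01 and 7.07 to 4.09, 4.83 and 3.98 FPKM (-0.61 ± 0.08, adjusted p = 2.88e-06). ENTPD1-AS1 went the same way in both, from 0.272 ± 0.0395 to 0.451 ± 0.0722 FPKM in OCI-LY3 and from 3.5 ± 0.0902 to 2.29 ± 0.286 FPKM in OCI-LY19 (SD, n = 3). HT and SUDHL5 overlapped before and after (adjusted p = 0.257 and 0.510).

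JCHAIN rose in SUDHL5 from 83.9, 82.2 and 81.9 to 174, 167 and 168 FPKM, 2.05-fold (1.03 ± 0.10 SE, adjusted p = 1.26e-07, limma). It fell in OCI-LY3 from 407, 423 and 401 to 279, 349 and 250 FPKM (-0.50 ± 0.10, adjusted p = 0.000285; 0.0639 with quantile normalization). HT overlapped, with 158, 178 and 196 FPKM before and 197, 183 and 227 after (adjusted p = 0.172). OCI-LY19 stayed at 10 to 17 reads per library, and there SDC1 rose without JCHAIN (JCHAIN 95% interval -0.19 to 0.23). SUDHL5 and OCI-LY3 differed in JCHAIN response by 1.53 on the log2 scale (OCI-LY3 minus SUDHL5, -1.53 ± 0.14, adjusted p = 6.3e-08). On the log2(FPKM + 1) scale the responses of all 10 members differed among the 4 lines in an F test, as did 72.2% of all genes. A line with a few reads of a member is held near 0 on this scale. For IRF4, PRDM1 and BATF the test therefore cannot compare folds with such lines. Of the 10, 9 passed with a pseudocount of 0.1, on the TPM scale or with quantile normalization.

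Lists of genes around the members were read in the same fits, beside the shares of all genes that rose and fell: 40.4% and 14.3% in OCI-LY3, 22.9% and 9.41% in HT, 34.5% and 23.7% in OCI-LY19, and 18.6% and 19.9% in SUDHL5. Of 18 tested other activated B cell-type genes, 10 rose and 2 fell in OCI-LY3, 6 and 1 in HT, 8 and 3 in OCI-LY19 and 8 and 2 in SUDHL5 (medians 0.25, 0.08, 0.06 and 0.18, against 0.16, 0.06, 0.08 and 0.00 over all genes). In OCI-LY19 the adhesion receptor CD44 rose from 37.5 ± 4.59 to 120 ± 9.56 FPKM and CCDC50 from 7.14 ± 0.429 to 12.8 ± 1.62 FPKM (SD, n = 3). In SUDHL5 the cytokine IL10 rose from a mean of 3.69 to 11.2 FPKM (1.38 ± 0.05 SE, adjusted p = 1.7e-13, limma), and the phosphatase PTPN1 from 19.2 to 40.5 FPKM. In OCI-LY3 the BH3-only gene BMF rose from 6.34 to 20.2 FPKM and the survival gene BCL2 fell from 21.8 to 8.78 FPKM.

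Of 19 tested other plasma cell genes, 4 rose and 11 fell in OCI-LY3, 4 and 7 in HT, 6 and 10 in OCI-LY19 and 3 and 4 in SUDHL5 (medians -0.28, 0.01, -0.29 and -0.01), and the SUDHL5 count is near the share of all genes. In OCI-LY19, XBP1, the factor that expands the secretory apparatus, fell from 72.7 ± 8.27 to 26.5 ± 6.04 FPKM (SD, n = 3; -1.44 ± 0.13 SE, adjusted p = 1.56e-08, limma) as SDC1 rose. The chaperone genes SDF2L1 and HSP90B1 fell in the same line from 26.8 to 5.12 and from 201 to 83.6 FPKM in the means. In SUDHL5, where 3 of these genes rose and 4 fell, MZB1, a chaperone for IgM assembly, fell from 45.0 ± 0.961 to 33.1 ± 0.990 FPKM (SD, n = 3). PRDX4 fell there from a mean of 15.7 to 7.78 FPKM. The genes named in both lines are among the largest changes, and the genes that rose are not among them.

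Of 14 germinal center B cell-type genes, 2 rose and 7 fell in OCI-LY3, 1 and 4 in HT, 4 and 3 in OCI-LY19 and 3 and 3 in SUDHL5 (medians -0.27, -0.09, 0.10 and -0.02). The OCI-LY19 and SUDHL5 counts are near the shares of all genes. BCL6 fell from 78.2 ± 6.24 to 22.9 ± 0.116 FPKM in OCI-LY3 and from 131 ± 6.26 to 61.3 ± 7.21 FPKM in HT (SD, n = 3). PRDM1 stayed at 8 reads or fewer in these lines, and a link between PRDM1 and BCL6 was not tested. Of 11 tested genes known to be repressed by PRDM1, a list that holds SPIB and BCL6, none rose and 8 fell in OCI-LY3, none rose and 6 fell in HT, 4 rose and 5 fell in OCI-LY19, and 6 rose and 2 fell in SUDHL5 (medians -0.49, -0.48, 0.14 and 0.40). In SUDHL5, CIITA, the MHC class II activator, rose from a mean of 4.32 to 10.3 FPKM and ID3 from 25.6 to 61.0 FPKM, and the 2 that fell were BCL6, from 102 to 76.1 FPKM, and MYC, from 22.8 to 13.4 FPKM. All 8 B cell markers fell in OCI-LY3, 6 fell and 1 rose in HT, 4 fell and 2 rose in OCI-LY19, and 5 rose in SUDHL5.

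**Figure D3:**
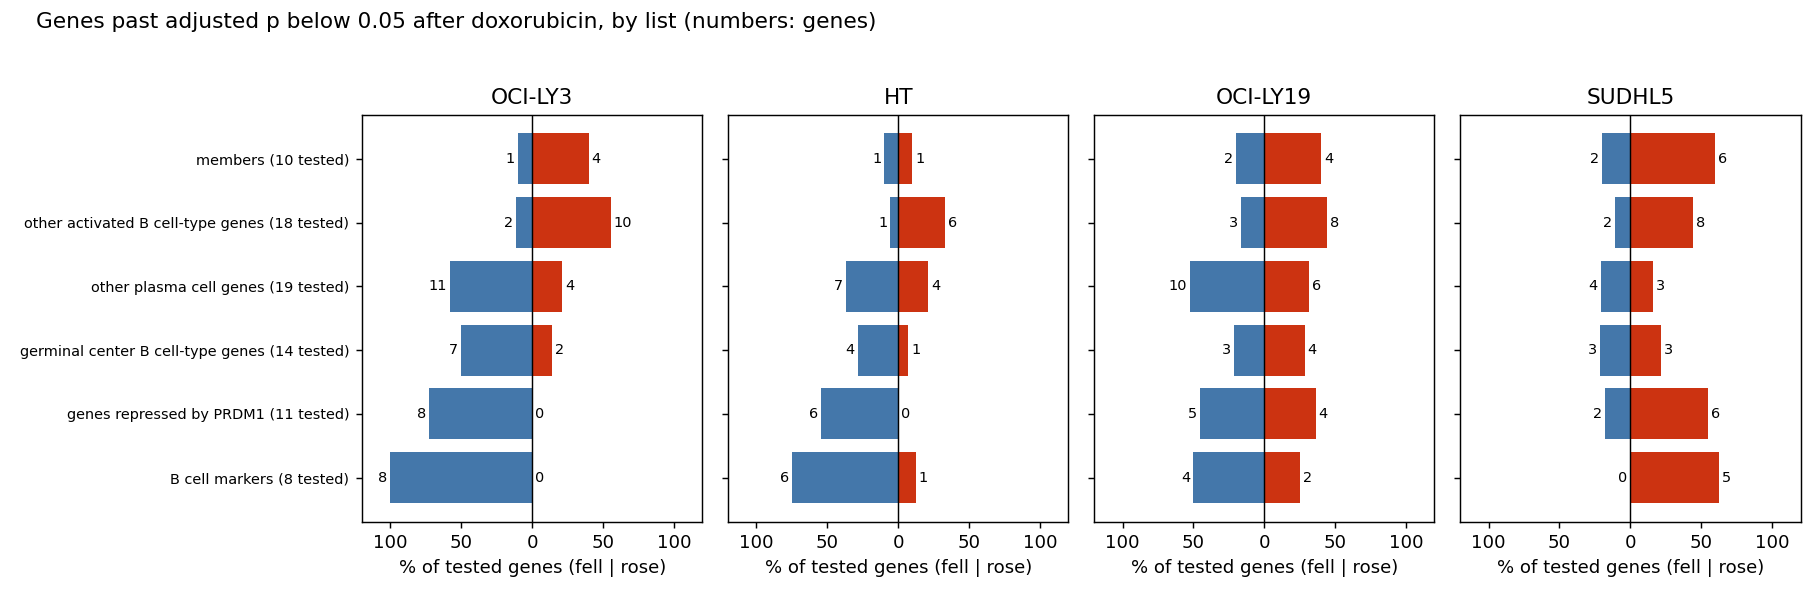
Share of the tested genes of each list that rose (red, right) or fell (blue, left) at 24 h in doxorubicin, in percent, with the number of genes at each bar end. The bars start at 0. In SUDHL5, 6 members rose and 2 fell, where 18.6% of all genes rose and 19.9% fell. The member counts of OCI-LY19 (4 and 2) and OCI-LY3 (4 and 1) are near the shares of all genes, 34.5% and 23.7%, and 40.4% and 14.3%.

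Among the paralogs and partners, 10 of 17 genes were tested, and 3 rose and 3 fell in OCI-LY3, 1 and 1 in HT, 3 and 2 in OCI-LY19 and 2 and 0 in SUDHL5. JUN, an AP-1 partner of BATF, rose in OCI-LY19 from 1.88 ± 0.665 to 27.7 ± 4.21 FPKM (SD, n = 3; 3.33 ± 0.15 SE, adjusted p = 9.85e-13, limma). IRF8, the IRF4 paralog of germinal center cells, fell in OCI-LY19 from 31.2 ± 2.63 to 11.2 ± 4.28 FPKM, opposite to IRF4. SPI1, which encodes PU.1, the paralog of SPIB, rose in OCI-LY19 from a mean of 16.7 to 31.1 FPKM, where SPIB fell, and in SUDHL5 from 60.6 to 117 FPKM, where SPIB rose too. The other syndecans stayed low in OCI-LY19, where SDC2, SDC3 and SDC4 had 0.00254 ± 0.00439, 0.552 ± 0.177 and 0.0615 ± 0.0452 FPKM at 24 h.

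The resistant culture OCI-LY19R was set against OCI-LY19S in the second table, which was normalized apart from the first, so levels are compared only within it. IRF4, PRDM1, BATF, ENTPD1 and PIM2 passed the filter on low values, and 0 of these 5 changed (limma, where 3.11% of 12785 genes rose and 2.34% fell). In this fit none of the 5 had an unadjusted p below 0.05, and voom on recovered reads also called 0 of 5. With the replicate block, or without OCI-LY19S replicate 1, 1 of the 5 had an unadjusted limma p below 0.05. Without OCI-LY19R replicate 3 it was 2 of the 5, and none was called in these settings. On the strand opposite PRDM1, ATG5 had 6.74 ± 0.706 FPKM in the parental and 4.97 ± 0.611 in the resistant libraries (SD, n = 3). PRDM1 had 4.88, 8.78 and 10.1 FPKM in the parental libraries, against 4.05, 4.74 and 6.92 in the resistant ones (-0.49 ± 0.27 SE, 95% interval -1.13 to 0.14, adjusted p = 0.315). IRF4 had 4.28, 4.62 and 2.38 against 4.36, 2.81 and 1.38 FPKM (-0.35, 95% interval -1.11 to 0.41). ENTPD1 was close to level at 5.98, 6.14 and 5.98 against 5.49, 5.63 and 5.64 FPKM, apart in every library but by 0.09 on the log2 scale (-0.09, 95% interval -0.26 to 0.08).

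**Figure D4:**
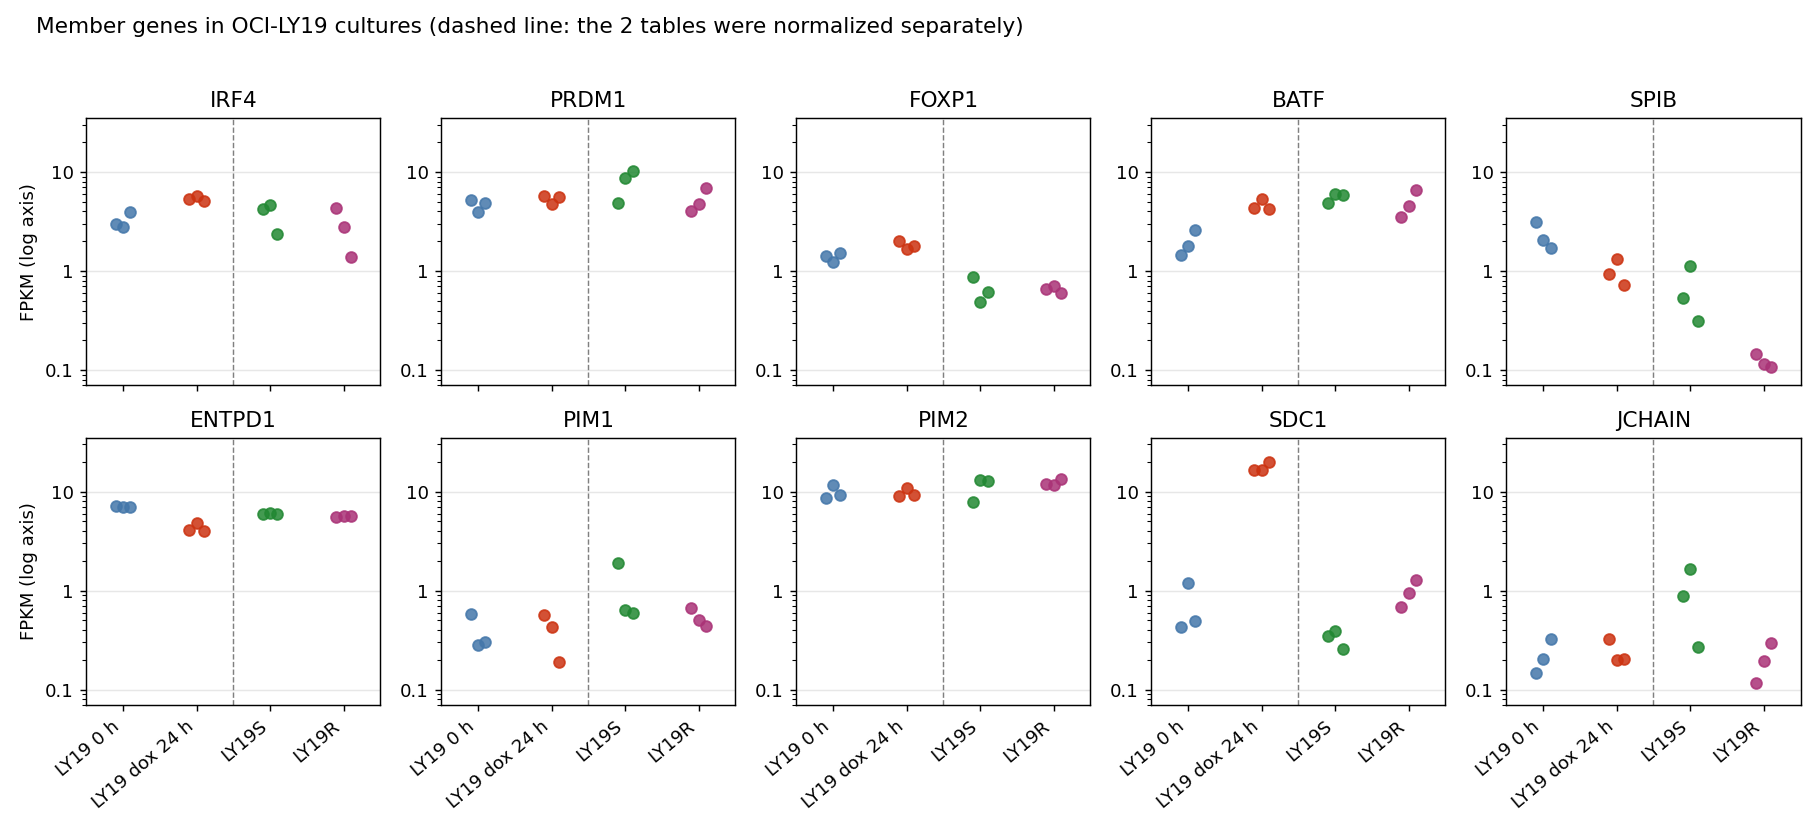
The 10 members in the 12 OCI-LY19 libraries, as FPKM on a shared log axis; each point is 1 library, and the dashed line parts the 2 tables, which were normalized separately. SDC1 stands at 16.6 to 20.0 FPKM at 24 h in doxorubicin and at 0.687 to 1.28 FPKM in the resistant culture, and SPIB is lowest in the resistant culture within its table.

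The other 5 members lay under the filter in that table, and their libraries are given with the authors' own adjusted p. SPIB had 0.534, 1.13 and 0.311 FPKM in the parental libraries, against 0.147, 0.115 and 0.108 in the resistant ones (11 to 21 reads), without overlap. The header of the authors' deposited table does not state its direction, and its signs for these genes are those of the resistant minus the parental FPKM. The authors' deposited table gave SPIB a log2 fold change of -2.451 with an adjusted p of 3.95e-05. SDC1 had 0.347, 0.390 and 0.255 FPKM in the parental and 0.687, 0.943 and 1.28 in the resistant libraries, also without overlap, and the authors' deposited table gave 1.522 with an adjusted p of 0.0002261. JCHAIN had 0.881, 1.67 and 0.271 against 0.116, 0.196 and 0.299 FPKM, overlapping, with -2.261 and an adjusted p of 0.01183 in the authors' deposited table. In the limma fit without a filter none of the 10 members passed, with adjusted p of 0.290 for SPIB, 0.177 for SDC1 and 0.406 for JCHAIN, and 2 of 10 had an unadjusted p below 0.05. At these levels adding 1 shrinks the change, to -0.53 for SPIB and 0.56 for SDC1. The means differed 5.33-fold downward for SPIB and 2.93-fold upward for SDC1. This fit therefore cannot show that these genes were unchanged. FOXP1 was level at 0.655 ± 0.194 and 0.654 ± 0.0534 FPKM, and PIM1 had 1.89, 0.642 and 0.591 against 0.671, 0.500 and 0.444 FPKM. In the authors' deposited table FOXP1 had -0.06507 with an adjusted p of 0.9298, and PIM1 had -0.9747 with 0.1703. For PRDM1, which had passed the filter, the authors gave -0.6814 with an unadjusted p of 0.01672 and an adjusted p of 0.1195. BATF had 4.87, 5.98 and 5.89 FPKM in the parental and 3.48, 4.53 and 6.62 in the resistant libraries, overlapping (-0.19, 95% interval -0.65 to 0.26).

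Around the members in the resistant culture, where 3.11% of all genes rose and 2.34% fell, 0 of 17 other plasma cell genes rose and 2 fell. These were CD38, from a mean of 14.8 to 5.25 FPKM (-1.35 ± 0.12 SE, adjusted p = 0.00509, limma), and the coactivator POU2AF1, from 11.3 to 4.93 FPKM. Of 12 other activated B cell-type genes 3 rose and none fell, among them BLNK, the B cell receptor adaptor, from 8.87 to 15.7 FPKM. Of 6 germinal center genes 1 rose and 2 fell, with MME (CD10) at 16.9 FPKM in the parental and 5.50 in the resistant culture. Of 9 genes repressed by PRDM1, 2 rose and none fell. Over all genes the number of calls in this comparison was unstable, 696 with all libraries and 65 without OCI-LY19R replicate 2, and the upward share went from 57.0% to 47.0% with quantile normalization and to 44.9% when scaled by the median of ratios.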

How the data were processed

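RNA-seq of 30 libraries was used as FPKM, deposited by the authors in 2 tables normalized separately. The submitters' processing notes list Trimmomatic, STAR, featureCounts and the build hg38, and tool versions were not given in the sources used here. For OCI-LY19R against OCI-LY19S the authors deposited log2 fold changes and p-values, which are printed as theirs. Per the file headers, that table also holds a depth-scaled mean signal and a test score per gene, made by the authors and not printed. Exon lengths from GENCODE 29 or solved from the values turned FPKM into whole reads for 100% of values within 0.01 read, in 39344 genes of unchanged annotation, which gave depth. Genes with FPKM of at least 1 in 3 libraries were tested with limma 3.58.1 (trend) in R 4.3.3 on log2(FPKM + 1), all 8 groups of the 4 lines in 1 fit (17645 genes, 16 residual degrees of freedom) and OCI-LY19R against OCI-LY19S in another (12785 genes, 4). P-values were adjusted by Benjamini-Hochberg over all genes, with a threshold of 0.05. The fit was tested on simulated data. Promoters came from RefSeq on GRCh38.p14, and gene coordinates from GENCODE 29 on GRCh38.

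The members and lists were chosen with earlier results of these data known. Beside the 10 members, the text names up to 3 genes per list and comparison, those of largest change among genes that passed with at least 10 FPKM in the higher group, some further list genes chosen after their values were seen, and the 5 genes nearest in pattern to IRF4, PRDM1 and JCHAIN. Some genes that this rule names are not reported here. Alternatives were another pseudocount, filter, scaling, a replicate block, single lines, each library left out and, chosen after seeing the data, voom on recovered reads and leaving out 4 libraries marked 2nd. Replicate numbers paired the HT libraries, whose deviations from their group means correlated at 0.17, 0.32 and 0.35 for equal numbers, and the block changed no member call there.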

Additional observations from a re-analysis of the deposited data

Results flagged for a closer look

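The response to doxorubicin differed among the 4 lines for each of the 10 members in the F test of that difference (limma, adjusted over 17645 genes). The adjusted p was 3.82e-11 for SDC1, 3.06e-08 for PRDM1, 2.56e-07 for JCHAIN, 3.95e-07 for PIM1, 3.66e-06 for ENTPD1 and 7.24e-06 for SPIB. It was 0.000254 for BATF, 0.00283 for PIM2, 0.00471 for IRF4 and 0.0244 for FOXP1. The same test was passed by 72.2% of all genes. With a pseudocount of 0.1, on the TPM scale or with quantile normalization, 9 of the 10 members passed it.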

How the results depend on the processing

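Of 270 single-member results with a library left out, 257 kept their side of the threshold without a called value turning, and of 411 under other settings 388 did. Among these, 15 and 12 results that were not called changed sign, such as IRF4 in OCI-LY3 (0.10, and -0.09 with quantile normalization) and PRDM1 in OCI-LY19 (0.16, and -0.02 with the same). The one change of direction of a called value was FOXP1 in OCI-LY19, at -0.08 with quantile normalization. Called members in OCI-LY3 numbered 3 with quantile normalization against 5. In HT they numbered 1 to 2 with a library left out against 2, the lower without replicate 1 at 24 h (PIM2). PRDM1 in OCI-LY19, not called, passed in 5 of 16 alternatives, among them the replicate block (adjusted p = 0.0172). SDC1 in HT passed in 3 of 15 alternatives and PRDM1 in OCI-LY3 in 2 of 16, both at a few reads. Genes changed in OCI-LY19R against OCI-LY19S numbered 696, and 368 with the filter at FPKM 5, 130 with no filter, 276 with the replicate block and 65 to 1129 with a library left out (106 without OCI-LY19S replicate 2, 391 without its replicate 3, 1129 without its replicate 1, 399, 65 and 114 without OCI-LY19R replicates 1, 2 and 3). The cause was not tested. Equal replicate numbers did not pair every library of the other comparisons: correlations were -0.01, 0.09 and 0.36 in OCI-LY3, 0.36, 0.26 and 0.04 in OCI-LY19, -0.01, -0.01 and -0.02 in SUDHL5, and 0.01, -0.11 and 0.12 between OCI-LY19S and OCI-LY19R. In OCI-LY19 unequal numbers gave -0.35 to 0.08, so replicates 1 and 2 did go with their own numbers and only replicate 3 did not. Depth limits IRF4, PRDM1, BATF and SDC1 where libraries hold few reads.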
